A study of Mus musculus with 12 samples.

Results

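Hopx knockout was compared with Hopx wild type in bone marrow cells from an experiment with MN1 overexpression, using all 6 libraries of its expression table out of 12 libraries in the series. The wild-type group, MN1_WT, held replicates 2, 3 and 4, and the knockout group, MN1_KO, held replicates 5, 7 and 8. Both groups came from C57BL/6 mice with a labelled age of 16 weeks, and both are labelled as overexpressing MN1, so MN1 is shared by the knockout and its control. The remaining 6 libraries, of both Hopx genotypes, came from marrow of mice labelled old, with an age of 18 weeks and no MN1 overexpression, and are used only where the 2 experiments are compared. The vector that delivered MN1, the species of its sequence, the cells it entered, the sex of the mice and any pooling are not given in the sources used here. Nothing says whether the replicates were separate animals, so every p-value measures only the spread between these libraries.

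Hopx encodes a small homeodomain protein that lacks DNA contacts and acts through partners, among them serum response factor and histone deacetylases. It is expressed in several stem cell compartments, including blood stem cells, and in some differentiated cells such as memory T cells. MN1 is a transcriptional coregulator. Forced expression of MN1 in mouse marrow progenitors produces an acute myeloid leukaemia that depends on Hoxa9 and Meis1, homeobox genes that keep progenitors immature.

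Levels below are TMM-scaled counts relative to library size (CPM), in which each library's counts are divided by its total after a correction for composition. Unless stated, the 3 wild-type values are in the order of replicates 2, 3 and 4, and the 3 knockout values in the order of replicates 5, 7 and 8. Hopx (chromosome 5, 77086988 to 77115121, minus strand, mm10) was at 29.6, 12.6 and 27.9 CPM in MN1_WT and at 3.12, 3.41 and 3.27 CPM in MN1_KO. The groups did not overlap, and the wild-type mean was 7.15 times the knockout mean (log2 fold change -2.84 ± 0.38 SE, n = 3 and 3, edgeR adjusted p = 0.129). The lowest wild-type level, in replicate 3, was still above every knockout level. Hopx overlaps the antisense gene Hopxos (chromosome 5, 77094532 to 77102303, plus strand), and whether the counting used strand is not given, so reads of the 2 genes may not be separated. Which part of Hopx was deleted is not given either, so the reads left in the knockout check nothing by themselves. In the aged knockout libraries, described further below, Hopx was at 0, 0 and 0.141 CPM. The source of the reads left in MN1_KO was not tested.

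Within the wild-type group the Mn1 level went against the labels. Mn1 (chromosome 5, 111417362 to 111457033, plus strand) was at 0.419, 32.4 and 0.175 CPM in MN1_WT and at 42.2, 45 and 24.8 CPM in MN1_KO. The libraries labelled MN1_WT replicates 2 and 4 therefore lay below the 1.25 CPM that was the highest level in the 6 libraries without MN1 overexpression, and replicate 3 lay among the knockout libraries. The progenitor homeobox gene Hoxa9 was at 9.98, 127 and 2.27 CPM in MN1_WT and at 130, 91.1 and 33.2 CPM in MN1_KO. Its cofactor gene Meis1 was at 5.95, 129 and 4.85 CPM in MN1_WT and at 109, 125 and 32.7 CPM in MN1_KO. For both genes replicate 3 sat with the knockout libraries and above MN1_KO replicate 8.

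Y-linked levels also moved with the groups, whereas Xist levels overlapped between them. Ddx3y, Eif2s3y, Kdm5d and Uty, which lie on the Y chromosome, together were at 256, 73 and 250 CPM in MN1_WT and at 12.6, 21 and 9.02 CPM in MN1_KO. Xist, the RNA that silences an X chromosome in female cells, was at 19.2, 3570 and 2.62 CPM in MN1_WT and at 4410, 3810 and 656 CPM in MN1_KO. Y-linked and Xist RNA were thus both present in replicate 3 and in the knockout libraries. On the first principal component of the log2 levels, which held 62.3% of the variance, MN1_WT replicates 2 and 4 were at -66.6 and -76.8, MN1_WT replicate 3 at 38.2, and MN1_KO replicates 5, 7 and 8 at 58.3, 49.3 and -2.4. Across genes, replicate 3 correlated with MN1_KO replicate 5 at 0.97, with MN1_WT replicate 2 at 0.92 and with MN1_KO replicate 8 at 0.918. The knockout libraries were not alike either. MN1_KO replicate 8 correlated with MN1_WT replicate 2 at 0.931 and with MN1_KO replicate 5 at 0.924. It also stood apart at -69.8 on the second component, which held 23.5% of the variance. With 2 of 3 controls low in Mn1 and all 3 controls high in Y-linked RNA, the Hopx genotype cannot be told apart from Y-linked level in these libraries, and only replicate 3 offers a wild-type level at a knockout-like Mn1 level.

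**Figure D1:**
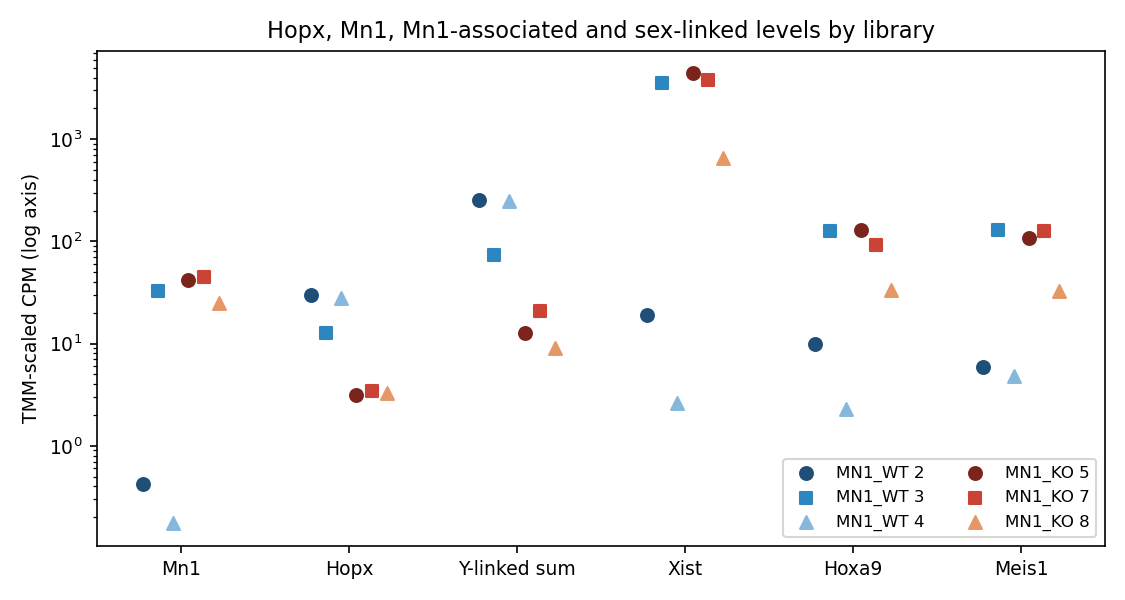
Levels of Mn1, Hopx, the Y-linked sum, Xist, Hoxa9 and Meis1 in each of the 6 libraries, as TMM-scaled CPM on a log axis; blue symbols are MN1_WT and red to orange symbols MN1_KO. MN1_WT replicate 3 (blue square) lies with the knockout libraries for Mn1 (32.4 CPM), Xist, Hoxa9 and Meis1, and between the groups for Hopx and the Y-linked sum.

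Of 13525 genes tested with edgeR's quasi-likelihood test, 0 passed an adjusted p of 0.05, which is 0% of the genes tested, and the smallest adjusted p was 0.0986. At an unadjusted p under 0.05 there were 1353 genes (10%), 568 (4.2%) with a higher and 785 (5.8%) with a lower knockout level. With DESeq2 565 genes (4.18%) passed, 219 higher (1.62%) and 346 lower (2.56%), and with limma-trend 6 genes (0.0444%), 5 higher (0.037%) and 1 lower (0.00739%). With all 12 libraries setting the spread 464 genes (3.33%) passed, 162 higher (1.16%) and 302 lower (2.17%). In 2068 genes (15.3%) the groups did not overlap, meaning that every knockout library lay above or below every wild-type library: 1073 (7.93%) with the knockout higher and 995 (7.36%) with it lower. All genes and lists below are therefore given as values, counts of non-overlapping groups are read against these shares, and no gene is called changed by the main test.

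The widest separations belonged to the stefin A genes. Stefins are small intracellular inhibitors of cysteine proteases such as the cathepsins, and the mouse carries a tandem array of stefin A genes that are expressed in neutrophils and their precursors. The array holds 11 genes of the expression table on chromosome 16, from Csta1 (start 36119946) to Stfa3 (end 36455392), and 9 of them passed the filter on low counts. Summed over the 11 genes, the array was at 88.9, 99.8 and 88.2 CPM in MN1_WT and at 2640, 7750 and 23800 CPM in MN1_KO. The means were 11400 ± 11000 CPM in MN1_KO and 92.3 ± 6.49 CPM in MN1_WT (SD, n = 3 and 3), a ratio of 123, and the knockout libraries themselves spanned 8.99-fold from replicate 5 to replicate 8. In MN1_KO replicate 8 these genes took 2.12% of all counts, against 0.0112% in MN1_WT replicate 3. Near-identical copies share reads, so the split among single stefin genes is uncertain and the sum is the firmer value. Replicate 3, which carried Mn1 at 32.4 CPM, thus had a sum of 99.8 CPM, close to the 88.9 and 88.2 CPM of the Mn1-low wild-type libraries. Single members were not alike in these controls. Stfa1 and BC100530 were higher in replicate 3, with Stfa1 at 19.9 CPM against 6.62 and 5.24 CPM. Stfa2l1 and Gm5483, which made up much of the Mn1-low sums, were lower in it, with Stfa2l1 at 19.4 CPM against 31 and 34.3 CPM.

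The 250 bases before the RefSeq start of the 4 members with an entry in the promoter table are shown because these genes were separated together; they are from build GRCm38.p6, written in the direction of transcription, 5′ to 3′, with each TTTAAAA, which resembles the TATA box, and each ACCACA, the core recognised by RUNX factors, in capitals. The windows are chr16:36276898-36277147 (plus strand) for Stfa1, chr16:36408364-36408613 (minus strand) for Stfa2, chr16:36455393-36455642 (minus strand) for Stfa3 and chr16:36156561-36156810 (plus strand) for Stfa2l1.
Stfa1: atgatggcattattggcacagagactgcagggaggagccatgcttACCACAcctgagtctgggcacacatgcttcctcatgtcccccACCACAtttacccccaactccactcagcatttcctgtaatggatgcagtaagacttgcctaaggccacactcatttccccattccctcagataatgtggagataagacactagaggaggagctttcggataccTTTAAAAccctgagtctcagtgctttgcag
Stfa2: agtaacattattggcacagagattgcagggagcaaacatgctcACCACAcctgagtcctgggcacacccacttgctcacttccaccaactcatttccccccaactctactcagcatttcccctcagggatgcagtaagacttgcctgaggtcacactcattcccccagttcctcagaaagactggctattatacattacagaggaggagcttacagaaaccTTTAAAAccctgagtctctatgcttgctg
Stfa3: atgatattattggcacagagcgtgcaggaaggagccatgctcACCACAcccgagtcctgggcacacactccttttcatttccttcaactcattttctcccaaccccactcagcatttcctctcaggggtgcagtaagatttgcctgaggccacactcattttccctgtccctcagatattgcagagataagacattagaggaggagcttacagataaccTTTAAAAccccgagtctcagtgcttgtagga
Stfa2l1: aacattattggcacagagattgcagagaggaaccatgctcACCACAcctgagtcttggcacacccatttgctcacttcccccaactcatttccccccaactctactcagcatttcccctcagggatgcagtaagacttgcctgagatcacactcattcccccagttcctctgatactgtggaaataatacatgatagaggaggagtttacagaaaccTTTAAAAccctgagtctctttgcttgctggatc
Pairwise identity of these windows ran from 80.2% (Stfa2 with Stfa3) to 89.4% (Stfa2 with Stfa2l1). TTTAAAA lay at positions -30 to -24 in Stfa1, -29 to -23 in Stfa2, -31 to -25 in Stfa3 and -33 to -27 in Stfa2l1, counted back from the RefSeq start. ACCACA began at -205 in Stfa1, -207 in Stfa2, -208 in Stfa3 and -210 in Stfa2l1, with another copy in Stfa1 at -163. On either strand TTTAAAA is found in 8.1% and ACCACA in 14% of 32841 RefSeq promoter windows of the same length. GAGGAA, the core of the PU.1 site, was found on either strand in all 4 windows and in 23.3% of all windows. TTGCNNAA, a C/EBP pattern, was found in Stfa1 alone of the 4 and in 9.57% of all windows. The 4 strings do not overlap each other in these windows and were chosen after the sequences had been seen; a match describes letters only.

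Stfa1 was at 6.62, 19.9 and 5.24 CPM in MN1_WT and at 716, 1920 and 6240 CPM in MN1_KO (log2 fold change 8.12 ± 1.16, edgeR adjusted p = 0.129). Its close relative BC100530 was at 5.41, 20.6 and 4.5 CPM in MN1_WT and at 785, 2420 and 6430 CPM in MN1_KO (8.30 ± 1.2, edgeR adjusted p = 0.129). Every knockout level of these genes was above every wild-type level by more than an order of magnitude, and in the wild type replicate 3 was highest. Stfa2 was at 4.32, 6.63 and 2.36 CPM in MN1_WT and at 211, 666 and 2270 CPM in MN1_KO. Stfa3 was at 3.02, 5.44 and 2.79 CPM in MN1_WT and at 186, 636 and 1830 CPM in MN1_KO. In each of these genes replicate 5 was the lowest knockout library and replicate 8 the highest. Stfa2l1, the member with the highest wild-type level among the named ones, was at 31, 19.4 and 34.3 CPM in MN1_WT and at 279, 754 and 2600 CPM in MN1_KO (5.42 ± 0.91, edgeR adjusted p = 0.15). BC117090 was at 0.21, 0.222 and 0.0873 CPM in MN1_WT and at 5.47, 14 and 83.8 CPM in MN1_KO. Per length, on the deposited TPM scale, Stfa1 was at 22174 TPM, BC100530 at 21351 TPM and Stfa3 at 6640.15 TPM in MN1_KO replicate 8.

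Ratios of group means over the 9 tested members ran from 42.8 to 454. The remaining tested members, named here after their values were seen, were Gm5483, Gm5416 and 2010005H15Rik. Gm5416 was at 0.126, 0.111 and 0.218 CPM in MN1_WT and at 12, 55.2 and 139 CPM in MN1_KO. Differences in the genes on either side were far smaller. Before the array, Wdr5b was at 11.8, 13.5 and 12.7 CPM in MN1_WT and at 15.8, 17.5 and 15 CPM in MN1_KO, and Fam162a was at 19.8, 14.6 and 17.9 CPM in MN1_WT and at 20.9, 20.9 and 35.1 CPM in MN1_KO. All knockout libraries were thus above all wild-type libraries for these neighbours too, by narrow gaps. The groups overlapped for the next gene, Ccdc58, which was at 13.1, 10.9 and 8.86 CPM in MN1_WT and at 12.7, 12.5 and 12.9 CPM in MN1_KO. Beyond the other end of the array, Cd86, the gene of a costimulatory ligand, was at 12, 4.81 and 13.6 CPM in MN1_WT and at 2.42, 2.48 and 10.4 CPM in MN1_KO.

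The stefin sum was also set beside the level of neutrophil granule genes. The 20 secondary and tertiary granule genes summed to 64400, 28000 and 79000 CPM in MN1_WT and to 16400, 43500 and 76500 CPM in MN1_KO, with overlapping groups. Per 1000 CPM of those granule genes, the stefin array was at 1.38, 3.57 and 1.12 CPM in MN1_WT and at 162, 178 and 311 CPM in MN1_KO. On that scale too all knockout libraries were above all wild-type libraries, and the knockout libraries were closer to each other than on the CPM scale. The wild-type libraries were less alike on it, with replicate 3 at 3.57 CPM against 1.38 and 1.12 CPM. Granule gene RNA is not a count of neutrophils, and the part of cell content in the stefin levels was not tested. Without MN1_WT replicate 3, Stfa1, Stfa2, Stfa3 and BC100530 passed with edgeR adjusted p values of 0.0294, 0.0348, 0.0313 and 0.0266, whereas Stfa2l1 was at 0.0528.

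**Figure D2:**
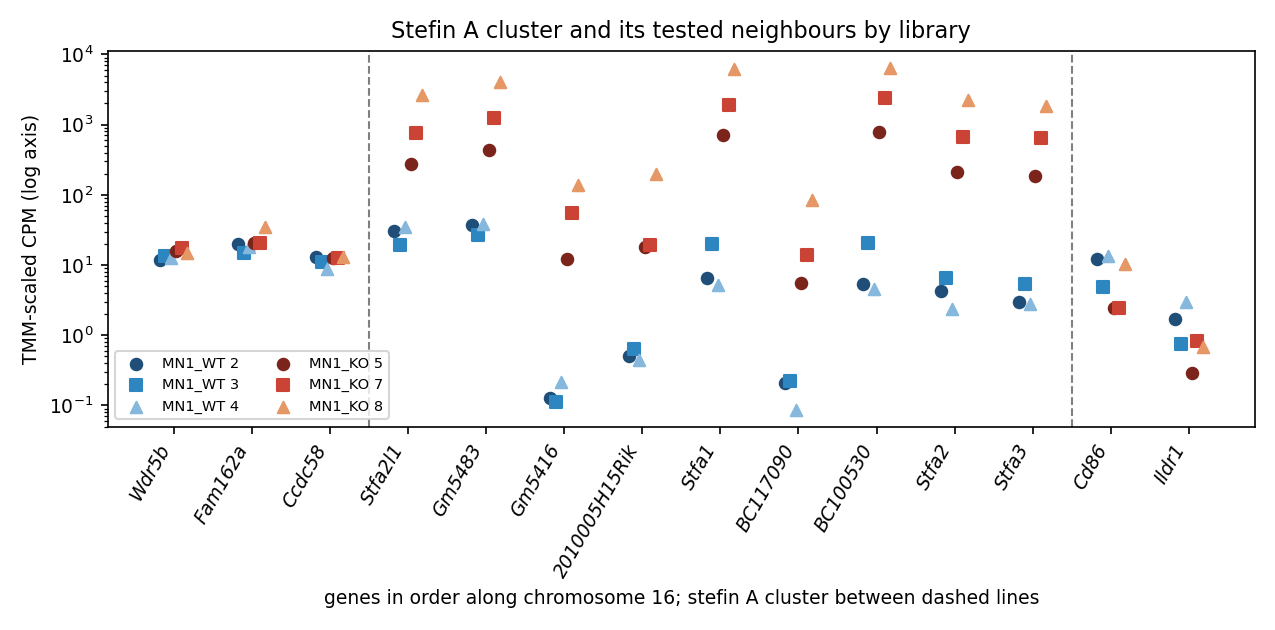
Levels of the tested stefin A genes and of their tested neighbours, in their order along chromosome 16, in each of the 6 libraries as TMM-scaled CPM on a log axis; the array lies between the dashed lines. Within the array the 3 knockout libraries lie above the 3 wild-type libraries for each gene plotted, and by wider gaps than for the neighbours Wdr5b and Fam162a, whose knockout libraries are also all higher but lie within 15 to 35.1 CPM against 11.8 to 19.8 CPM in the wild type.

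Other genes with wide gaps above the wild type encode transporters, receptors, matrix proteins and enzymes. Slc6a2, the noradrenaline transporter gene (chromosome 8, 92960079 to 93001667), was at 0.0419, 0.111 and 0.0437 CPM in MN1_WT and at 9.95, 32.1 and 44.4 CPM in MN1_KO (log2 fold change 8.64 ± 0.82, n = 3 and 3, edgeR adjusted p = 0.0986). Thbs4, which encodes the matrix protein thrombospondin 4 (chromosome 13, 92751590 to 92794818), was at 0.377, 0.444 and 0.262 CPM in MN1_WT and at 11.2, 28.5 and 11.4 CPM in MN1_KO (5.53 ± 0.56, edgeR adjusted p = 0.0986). Replicate 3, with its high Mn1, was the highest wild-type library for both genes and was more than an order of magnitude below every knockout library. Lrp1, an endocytic receptor (chromosome 10, 127538161 to 127621148), was expressed throughout, at 149, 243 and 170 CPM in MN1_WT and at 1920, 1860 and 3570 CPM in MN1_KO (3.71 ± 0.38, edgeR adjusted p = 0.0986). Lrp1 is a macrophage receptor too, and it was the only one of 33 tested monocyte and macrophage genes whose knockout libraries were all higher.

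Tcf7l2, a transcription factor of the Wnt pathway, was at 3.02, 2.78 and 3.49 CPM in MN1_WT and at 10.9, 38.5 and 42.1 CPM in MN1_KO (3.30 ± 0.54, edgeR adjusted p = 0.142).

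Among enzymes, the cytochrome P450 gene Cyp2j6 was at 1.63, 3.78 and 1 CPM in MN1_WT and at 48.8, 28.8 and 44 CPM in MN1_KO, and the carboxylesterase gene Ces1d was at 1.63, 3.96 and 2.05 CPM in MN1_WT and at 37.4, 42.2 and 153 CPM in MN1_KO. Try10, a trypsin gene, was at 0.0419, 0.444 and 0 CPM in MN1_WT and at 11.8, 16 and 49.1 CPM in MN1_KO. In these 3 genes replicate 3 was the highest wild-type library and lay far below the lowest knockout library. Glp1r, the glucagon-like peptide 1 receptor gene, was at 0, 1.07 and 0.0437 CPM in MN1_WT and at 13, 16.5 and 15.1 CPM in MN1_KO. Cdh3, which encodes P-cadherin, was at 5.03, 1.74 and 0 CPM in MN1_WT and at 49.3, 70 and 94.8 CPM in MN1_KO. Ccdc85a, with almost no wild-type counts, was at 0, 0 and 0.0437 CPM in MN1_WT and at 4.63, 12.5 and 5.17 CPM in MN1_KO.

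Flt1, the gene of a VEGF receptor, was at 4.28, 10.1 and 4.58 CPM in MN1_WT and at 36.4, 41 and 19.9 CPM in MN1_KO (2.36 ± 0.46, edgeR adjusted p = 0.194). The cyclin-dependent kinase inhibitor gene Cdkn1a had a small but even separation, at 19.7, 19.8 and 18.6 CPM in MN1_WT and at 38.2, 33 and 39.2 CPM in MN1_KO (0.93 ± 0.17, edgeR adjusted p = 0.156). Its wild-type levels of 18.6 to 19.8 CPM did not follow the Mn1 level of those libraries.

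The widest gaps below the wild type had a different look, since replicate 3 mostly lay between the groups. Myh10, the gene of a non-muscle myosin heavy chain, was at 22, 5.59 and 36.9 CPM in MN1_WT and at 0.624, 0.888 and 1.02 CPM in MN1_KO (-4.67 ± 0.75, edgeR adjusted p = 0.14). Dock1, a guanine nucleotide exchange factor for Rac in cell migration and engulfment, was at 22.3, 7.44 and 24 CPM in MN1_WT and at 0.771, 1.54 and 0.683 CPM in MN1_KO (-4.16 ± 0.61, edgeR adjusted p = 0.129). Ly6g, the surface antigen by which mouse neutrophils are stained, was at 223, 98.6 and 281 CPM in MN1_WT and at 8.19, 16.3 and 30.3 CPM in MN1_KO (-3.46 ± 0.61, edgeR adjusted p = 0.152). In all 3 genes the groups were separated and replicate 3 was the lowest wild-type library.

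Marco, a macrophage scavenger receptor gene (chromosome 1, 120474538 to 120505024), was at 3.27, 2.92 and 5.76 CPM in MN1_WT and at 0.257, 0.187 and 0.195 CPM in MN1_KO (-4.18 ± 0.50, edgeR adjusted p = 0.129). Chil5, a chitinase-like gene, was at 9.73, 6.29 and 12.1 CPM in MN1_WT and at 0.551, 1.26 and 1.07 CPM in MN1_KO. These genes differed from the previous ones in that replicate 3 stayed near the other wild-type libraries. Ggt1, a gamma-glutamyltransferase of glutathione breakdown (chromosome 10, 75561604 to 75586200), was at 14.8, 6.85 and 10.9 CPM in MN1_WT and at 1.25, 1.54 and 1.76 CPM in MN1_KO (-2.83 ± 0.41, edgeR adjusted p = 0.129). Lipg, the endothelial lipase gene, was at 114, 49.3 and 76 CPM in MN1_WT and at 7.93, 13.1 and 2.88 CPM in MN1_KO (-3.32 ± 0.61, edgeR adjusted p = 0.17).

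The remaining wide gaps below the wild type were those of Hopx, of the Y-linked genes Eif2s3y and Ddx3y, and of Skint3, Ica1, Muc20, Tex15 and Stxbp6. Ica1, which encodes a protein of secretory vesicles, was at 43.6, 19.6 and 45.8 CPM in MN1_WT and at 3.82, 2.06 and 4.98 CPM in MN1_KO. Eif2s3y, the Y-linked gene of a translation factor subunit, was at 100, 28.1 and 95.2 CPM in MN1_WT and at 4.26, 7.52 and 4.59 CPM in MN1_KO (-3.77 ± 0.56, edgeR adjusted p = 0.129). Replicate 3 was again between the other wild-type libraries and the knockout.

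Leaving out 1 library showed how far the comparison rests on MN1_WT replicate 3. Without it, 896 of 13807 genes (6.49%) passed edgeR's test, 455 (3.3%) higher and 441 (3.19%) lower in MN1_KO, and the controls were then the 2 libraries low in Mn1. Without MN1_KO replicate 5, 3 genes (0.0217%) passed, and without any other single library 0 did. The left-out library was then read for those 896 genes on a scale where 0 is the mean of MN1_WT replicates 2 and 4 and 1 is the mean of the knockout libraries, on the log2 scale. In 707 of them (78.9%) replicate 3 was nearer the knockout and in 189 (21.1%) nearer the wild type, with a median position of 0.79 (quartiles 0.54 and 1.07). The libraries that set 0 and 1 are also those that called these genes. That choice can by itself place the left-out library away from 0, and the share over all genes is not given here. These counts are therefore a description only. Among the 455 genes higher in the knockout the median position was 1.01, and among the 441 lower it was 0.70.

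The genes that did not follow this pattern included many of those described above. Of the 896 genes, 71 had replicate 3 at a position below 0.25, 60 with a higher and 11 with a lower knockout level. Replicate 3 stood at 0.03 for Slc6a2, 0.05 for Thbs4 and for Cdkn1a, 0.11 for Stfa3, 0.16 for Lrp1, 0.20 for Stfa1 and 0.18 for Marco. These genes had been named for groups that were apart with replicate 3 among the controls. Low positions therefore follow in part from that choice and are no separate check. Of the genes named in advance, replicate 3 stood at 0.39 for Hopx, 0.97 for Mn1, 1.2 for Meis1 and 1.21 for Hoxa9. The Mn1 difference was at 1.76 ± 1.61 over all 6 libraries (edgeR adjusted p = 0.796). With the Mn1 level as a covariate, or with replicate 3 as the only wild-type library, 0 genes passed.

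**Figure D3:**
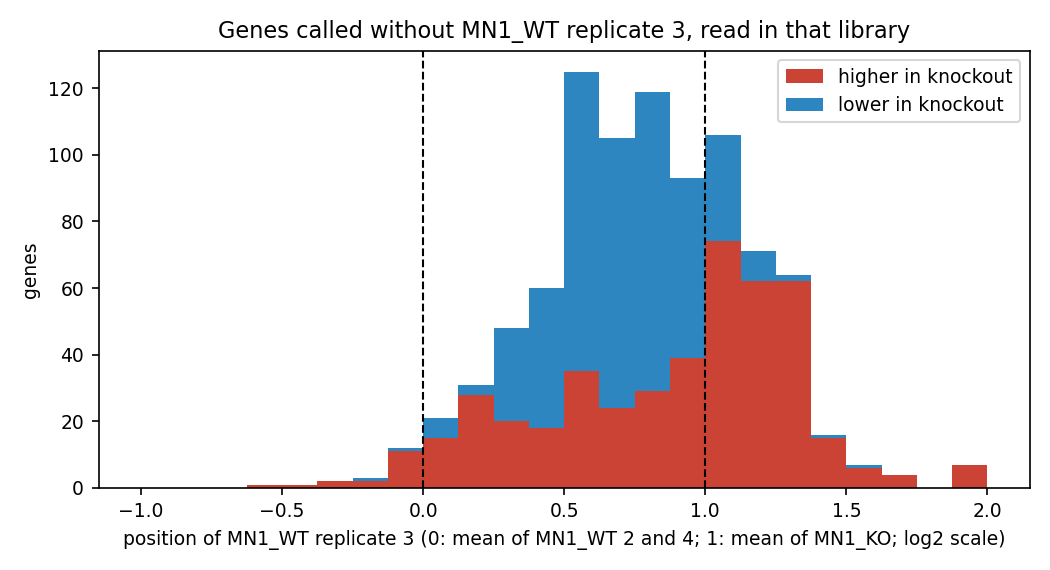
Number of genes by the position of MN1_WT replicate 3, a library left out of the fit that called these 896 genes, where 0 is the mean of MN1_WT replicates 2 and 4 and 1 the mean of MN1_KO on the log2 scale; values beyond -1 or 2 are placed in the end bins. Most genes lie nearer 1 (707 of 896), and genes below 0.25 are mostly ones higher in the knockout (60 of 71). The libraries that set 0 and 1 also called these genes, which can by itself move positions away from 0.

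Gene lists from the biology of marrow were then described by how many tested members had non-overlapping groups, beside the 7.93% (higher) and 7.36% (lower) of all genes tested. Marrow lineage genes were present in all 6 libraries: the erythroid list summed to 972 to 3640 CPM and the B cell list to 268 to 890 CPM. In these bulk libraries fewer cells of a type and less RNA per cell cannot be told apart. The Mn1 level, low in MN1_WT replicates 2 and 4, and the Y-linked level also differed between these libraries. Their part in the lists below was not tested. Of 24 tested B cell genes, 11 had all knockout libraries lower and 0 had all higher, with a median log2 fold change of -3.06, against 0.03 over all genes. Rag1, which cuts the antigen receptor loci, was at 75.1, 4.03 and 46.2 CPM in MN1_WT and at 1.4, 3.74 and 1.61 CPM in MN1_KO (-4.22 ± 1.06, edgeR adjusted p = 0.273). Pax5, the transcription factor of B cell identity, was at 7.5, 0.444 and 5.46 CPM in MN1_WT and at 0.0735, 0.234 and 0.195 CPM in MN1_KO. For Rag1 and Pax5 replicate 3 was near the knockout, whereas Bank1, a B cell scaffold protein gene, was at 11.2, 10.5 and 16.9 CPM in MN1_WT and at 3.23, 5.7 and 4.63 CPM in MN1_KO. None of the 24 passed with all libraries, 16 passed without replicate 3, all lower (background 3.19%), and 18 passed with DESeq2, all lower (background 2.56%).

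T and NK cell genes were separated more evenly. Of 27 tested, 14 had all knockout libraries lower and 0 higher, with a median of -1.14. Cd8a, of the co-receptor of cytotoxic T cells, was at 35.6, 19.6 and 54.1 CPM in MN1_WT and at 7.97, 12.1 and 14.6 CPM in MN1_KO (-1.66 ± 0.42, edgeR adjusted p = 0.274). The kinase gene Lck was at 44.4, 33.7 and 71.1 CPM in MN1_WT and at 18.8, 19.9 and 23.3 CPM in MN1_KO. Tcf7, a T cell transcription factor gene that is also on the Wnt list, was at 25.8, 18 and 34.3 CPM in MN1_WT and at 7.35, 6.92 and 6.2 CPM in MN1_KO (-1.93 ± 0.29, edgeR adjusted p = 0.129). In these genes replicate 3 was the lowest wild-type library but stayed above all 3 knockout libraries. Of 11 plasma cell genes 4 were lower without overlap, among them Jchain, the gene of the joining chain of secreted antibodies, at 251, 191 and 369 CPM in MN1_WT and 51.8, 23 and 96.5 CPM in MN1_KO.

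Of 33 tested monocyte and macrophage genes, 15 had all knockout libraries lower (median -1.26). Of 29 genes of the MHC and interferon-gamma list 6 did, with a median of -0.25, and 8 had a fitted change above 0. None of either list passed edgeR's test with all libraries. Cd5l, a secreted protein gene of tissue macrophages, was at 41, 33.2 and 61.9 CPM in MN1_WT and at 9.33, 9.25 and 13.7 CPM in MN1_KO (-2.08 ± 0.31, edgeR adjusted p = 0.129). Maf, a macrophage transcription factor gene, was at 20.3, 12.6 and 24.3 CPM in MN1_WT and at 5.84, 3.93 and 5.22 CPM in MN1_KO. For both genes every knockout library was below the lowest wild-type library, replicate 3. The class II gene H2-Ab1 was at 122, 64.9 and 189 CPM in MN1_WT and at 37.4, 33.3 and 33.1 CPM in MN1_KO (-1.86 ± 0.38, edgeR adjusted p = 0.209). The invariant chain gene Cd74 was at 327, 102 and 511 CPM in MN1_WT and at 56.2, 56.3 and 89 CPM in MN1_KO. Of 17 dendritic cell genes 4 were lower without overlap and 1 higher.

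Of 13 tested eosinophil genes 6 had all knockout libraries lower, with a median of -1.72. Epx, eosinophil peroxidase, was at 1050, 563 and 1010 CPM in MN1_WT and at 93.4, 214 and 15.5 CPM in MN1_KO (-3.02 ± 0.88, edgeR adjusted p = 0.317). Ear2, an eosinophil ribonuclease gene, was at 375, 257 and 328 CPM in MN1_WT and at 40.4, 131 and 25.7 CPM in MN1_KO. Here replicate 3 stayed with the wild type, at positions of 0.22 for Epx and 0.16 for Ear2, and the lowest library was MN1_KO replicate 8. No member passed without replicate 3 (3.19% of all genes passed as lower), while 4 passed with DESeq2, all lower (2.56% of all genes). Ear genes are close copies of each other, so their single values are uncertain.

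Neutrophil genes did not move as 1 group. Of 23 mature neutrophil genes, 5 had all knockout libraries higher, and these were the 5 stefin genes on the list, while 5 had all lower, among them Ly6g, Mmp9 and Il1b. Mmp9, the gelatinase of tertiary granules, was at 1960, 888 and 2210 CPM in MN1_WT and at 149, 530 and 852 CPM in MN1_KO (-1.72 ± 0.66, edgeR adjusted p = 0.449), and it was the only one of 20 secondary and tertiary granule genes without overlap. Of 15 primary granule and granulocyte progenitor genes 1, Fcnb, was separated: it was at 365, 106 and 486 CPM in MN1_WT and at 18, 65.7 and 74.2 CPM in MN1_KO. Il1b, the interleukin 1 beta gene, was at 80.6, 22.9 and 77.9 CPM in MN1_WT and at 9.07, 8.92 and 22.7 CPM in MN1_KO. Its highest knockout library, replicate 8, was just under wild-type replicate 3. In the same libraries, the inflammatory prostaglandin synthase gene Ptgs2 was at 7.55, 1.63 and 8.6 CPM in MN1_WT and at 0.624, 0.467 and 0.341 CPM in MN1_KO.

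Red cell, platelet and stromal lists were mostly at or under the background. Of 25 erythroid genes 1 was lower without overlap, and this was Tfrc, the transferrin receptor gene, at 333, 107 and 311 CPM in MN1_WT and 98.5, 78.6 and 93 CPM in MN1_KO. None of 18 megakaryocyte and platelet genes was separated in either direction, and of 18 stromal genes 1 was higher (Thbs4) and 1 lower (Alpl). Of 20 endothelial genes 9 were lower without overlap and 1, Flt1, higher. Most of these were low: Kdr, another VEGF receptor gene, was at 3.1, 2.78 and 4.32 CPM in MN1_WT and at 0.955, 1.54 and 1.12 CPM in MN1_KO. Eng, a TGF-beta co-receptor gene, was at 22.8, 32.5 and 29.7 CPM in MN1_WT and at 14.7, 17.4 and 15.1 CPM in MN1_KO (-0.85 ± 0.21, edgeR adjusted p = 0.263), with replicate 3 the highest of all libraries.

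All 26 tested mitosis genes had a fitted change below 0 (median -0.58), of which 5 had non-overlapping groups. Top2a, a topoisomerase of dividing cells, was at 854, 477 and 913 CPM in MN1_WT and at 430, 372 and 334 CPM in MN1_KO (-0.98 ± 0.29, edgeR adjusted p = 0.322), and Mki67, a marker of cycling cells, was at 1260, 677 and 1490 CPM in MN1_WT and at 636, 624 and 561 CPM in MN1_KO. Replicate 3 lay just above the knockout libraries for both. None of 27 DNA replication genes was separated, and no mitosis, replication or sterol gene passed edgeR's test with all libraries. Of 28 cholesterol and fatty acid synthesis genes 11 were lower without overlap (median -0.44). Sqle, the squalene epoxidase gene, was at 29.4, 17.8 and 27.3 CPM in MN1_WT and at 12.8, 13.2 and 10.6 CPM in MN1_KO (-1.02 ± 0.26, edgeR adjusted p = 0.269). Hsd17b7, another enzyme gene of sterol synthesis, differed by more, at 15.6, 11 and 24.3 CPM in MN1_WT and at 5.62, 6.03 and 2.49 CPM in MN1_KO (-1.85 ± 0.46, edgeR adjusted p = 0.273).

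Of 11 Wnt response genes 6 were lower without overlap and 1, Tcf7l2, higher. Ccnd1, the cyclin D1 gene, was at 24.8, 3.04 and 20.2 CPM in MN1_WT and at 1.29, 1.07 and 1.8 CPM in MN1_KO (-3.52 ± 0.79, edgeR adjusted p = 0.235). Lef1, a transcription factor of the pathway that lymphocytes also express, was at 21, 4 and 12.6 CPM in MN1_WT and at 1.73, 1.64 and 1.32 CPM in MN1_KO. For both, replicate 3 was nearer the knockout. Among 19 cyclin-dependent kinase inhibitors and quiescence genes, 3 were higher without overlap and 3 lower. The lower ones included Cdkn1c, a kinase inhibitor gene of quiescent stem cells, at 6.75, 3.33 and 5.28 CPM in MN1_WT and 1.73, 0.794 and 1.12 CPM in MN1_KO, and the transcription factor gene Foxo1, at 31.1, 18.4 and 25.8 CPM in MN1_WT and 12, 11.9 and 8.88 CPM in MN1_KO.

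Type I interferon genes were the list with the largest share of higher members besides the mature neutrophil list. Of 27 tested genes 5 had all knockout libraries higher (18.5% against a background of 7.93%) and 0 lower, with a median of 0.34. Irf7, a transcription factor of the response, was at 89.2, 116 and 105 CPM in MN1_WT and at 138, 144 and 282 CPM in MN1_KO (0.86 ± 0.32, edgeR adjusted p = 0.425). Xaf1, another interferon-induced gene, was at 21.7, 21.4 and 22.1 CPM in MN1_WT and at 29.2, 29.3 and 59.1 CPM in MN1_KO. MN1_KO replicate 8 was the highest library for both, and 1 of the 27 passed without replicate 3 (3.3% of all genes passed as higher) and 0 with DESeq2 (1.62%).

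For the MN1-associated and HOXA genes the groups did not overlap in 1 of 15, although 14 of 15 had a fitted change above 0 (median 1.14). The members that differed most between replicate 3 and the other wild-type libraries were named after their values were seen. Flt3, a receptor kinase gene of early progenitors, was at 15, 637 and 4.89 CPM in MN1_WT and at 467, 367 and 106 CPM in MN1_KO. Hoxa10 was at 0.922, 88.2 and 0.568 CPM in MN1_WT and at 67.2, 27 and 32.4 CPM in MN1_KO. Replicate 3 was the highest of the 6 libraries in both. Without replicate 3, 9 of the 15 passed edgeR's test, all higher in the knockout, against 3.3% of all genes. Mn1 is 1 of these 9, and the controls left in that fit are the libraries known to be low in Mn1, so the count is given as a description only.

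Cxcl12, the chemokine that holds stem cells in the marrow niche (chromosome 6, 117168535 to 117181367), was at 75.1, 54.7 and 149 CPM in MN1_WT and at 27.7, 25.9 and 56.5 CPM in MN1_KO (-1.34 ± 0.48, edgeR adjusted p = 0.408). The groups overlapped, since MN1_KO replicate 8 was above MN1_WT replicate 3. Its receptor gene Cxcr4 was at 268, 147 and 302 CPM in MN1_WT and at 134, 152 and 242 CPM in MN1_KO (-0.44 ± 0.35, edgeR adjusted p = 0.759). None of 14 genes of the CXCL12 axis and niche list was separated. Dpp4, the peptidase that inactivates CXCL12, was at 38.3, 8.33 and 29.9 CPM in MN1_WT and at 10.4, 5.93 and 7.46 CPM in MN1_KO.

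Of 17 genes of HOPX partners and serum response factor targets, 1 was higher without overlap and 2 were lower. Tpm2, a tropomyosin gene, was at 0.755, 3.22 and 1.35 CPM in MN1_WT and at 9.95, 5.05 and 6.63 CPM in MN1_KO (2.02 ± 0.62, edgeR adjusted p = 0.34). Vcl, the vinculin gene, was at 397, 218 and 473 CPM in MN1_WT and at 146, 199 and 210 CPM in MN1_KO (-0.97 ± 0.32, edgeR adjusted p = 0.382). Of 13 tested neighbours of Hopx on chromosome 5, 0 were separated, with a median of 0. Over all genes tested, 15.3% were separated in either direction. Shares near or under it were found for oxidative phosphorylation (1 of 37), glycolysis and hypoxia (1 of 26), and MYC and ribosome biogenesis (2 of 23). The same held for progenitor and stem cell genes (1 of 30) and immediate early genes (1 of 23). It also held for basophil and mast cell genes (1 of 16) and TNF and NF-kB feedback genes (3 of 24, all lower). Above it were the p53 targets (2 higher and 3 lower of 18) and, by few genes, TGF-beta and BMP feedback genes (1 higher and 3 lower of 20). Replication-dependent histones were above it too (5 lower of 13, all of the named ones under 3 CPM).

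**Figure D4:**
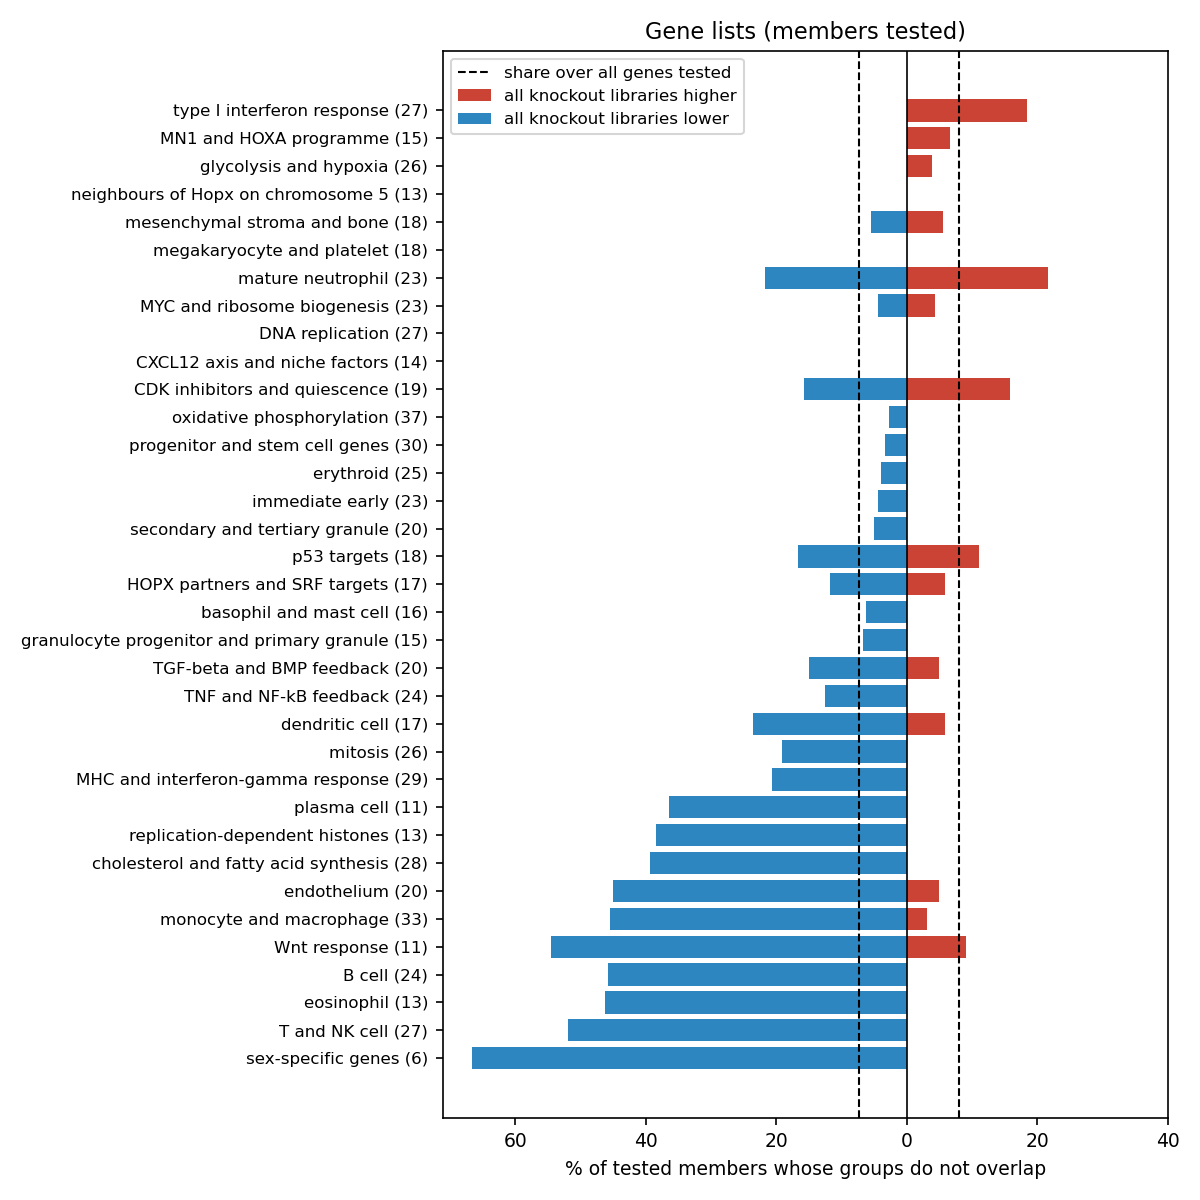
Share of the tested members of each gene list, in percent, with all knockout libraries below all wild-type libraries (blue, to the left) or above them (red, to the right); dashed lines mark the shares over all genes tested, 7.36% and 7.93%, and the number of tested members is in parentheses. Lymphoid, eosinophil, macrophage, endothelial, sterol and Wnt lists reach 36.4 to 54.5% on the lower side, the sex-specific list 66.7%, and the mature neutrophil list reaches 21.7% on each side.

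The knockout effect was last set against that in marrow without MN1 overexpression, where 4008 of 12771 genes (31.4%) passed. The difference of the 2 effects, fitted over all 12 libraries, passed in 463 of 13937 genes (3.32%). That count ran from 53 without aged_WT replicate 7 to 3337 without MN1_WT replicate 3, so whether a single gene passes can turn on 1 library. Labelled age, MN1 status and expression table coincide in this contrast and cannot be told apart. Y-linked level enters it too. The Y-linked sum was at 256, 73 and 250 CPM in MN1_WT and at 12.6, 21 and 9.02 CPM in MN1_KO. In the aged libraries of both genotypes Ddx3y, Eif2s3y, Kdm5d and Uty were each at 0.102 CPM or less. The part of Y-linked level in the differences was not tested. Hopx itself was at 15, 35.1 and 15.3 CPM in the 3 aged wild-type libraries and at 0, 0 and 0.141 CPM in the 3 aged knockout libraries, so residual Hopx was lower there than the 3.12 to 3.41 CPM of MN1_KO (difference of effects 6.12, edgeR adjusted p = 0.0134).

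Stefin levels in the aged libraries, which were scaled over all 12 libraries, were set beside the MN1 values. Stfa1 was at 21.5, 9.75 and 8.86 CPM in the aged wild type and at 24.6, 47.2 and 53.6 CPM in the aged knockout (log2 fold change 1.66 ± 0.44, edgeR adjusted p = 0.0331). It rose there to levels far below the lowest MN1_KO library, at 716 CPM, and the effects differed by 6.43 ± 1.13 (SE, edgeR adjusted p = 0.019). Stfa3 also rose in the aged knockout, by 1.48 ± 0.19 (edgeR adjusted p = 0.000967), and its effects differed by 6.37 (edgeR adjusted p = 0.0123). Thbs4 rose by 1.40 ± 0.38 and Lrp1 by 0.88 ± 0.26 in the aged knockout (edgeR adjusted p = 0.0221 and 0.0363), and the effects differed from those in the MN1 libraries by 4.11 and 2.82 (edgeR adjusted p = 0.0136 and 0.0163). Aged Thbs4 levels were low, at 0.398, 0.388 and 0.356 CPM in the wild type and at 0.843, 0.816 and 1.41 CPM in the knockout.

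Several genes went in opposite directions. Ggt1 was at 3.35, 5.1 and 2.19 CPM in the aged wild type and at 38, 35.6 and 53.8 CPM in the aged knockout (3.58 ± 0.29, edgeR adjusted p = 0.000356), whereas in the MN1 libraries the knockout was lower (difference -6.43, edgeR adjusted p = 0.000906). Lipg was at 23, 27.9 and 4.12 CPM in the aged wild type and at 413, 139 and 316 CPM in the aged knockout (3.99 ± 0.82, edgeR adjusted p = 0.0194; difference -7.31, edgeR adjusted p = 0.0114). Idi1, Sqle and Hsd17b7, enzymes of sterol synthesis, differed in the same direction, by -1.58, -1.67 and -2.73 (edgeR adjusted p = 0.0277, 0.035 and 0.0278). Ces1d, Tpm2 and Xaf1 went the other way, lower in the aged knockout and higher in MN1_KO. Marco was low in both knockouts: it was at 0.966, 5 and 0.764 CPM in the aged wild type and at 0.12, 0.172 and 0 CPM in the aged knockout, and its effects differed by 0.14 ± 1.02 (SE, edgeR adjusted p = 0.953), which is too wide an error to call them alike.

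**Figure D5:**
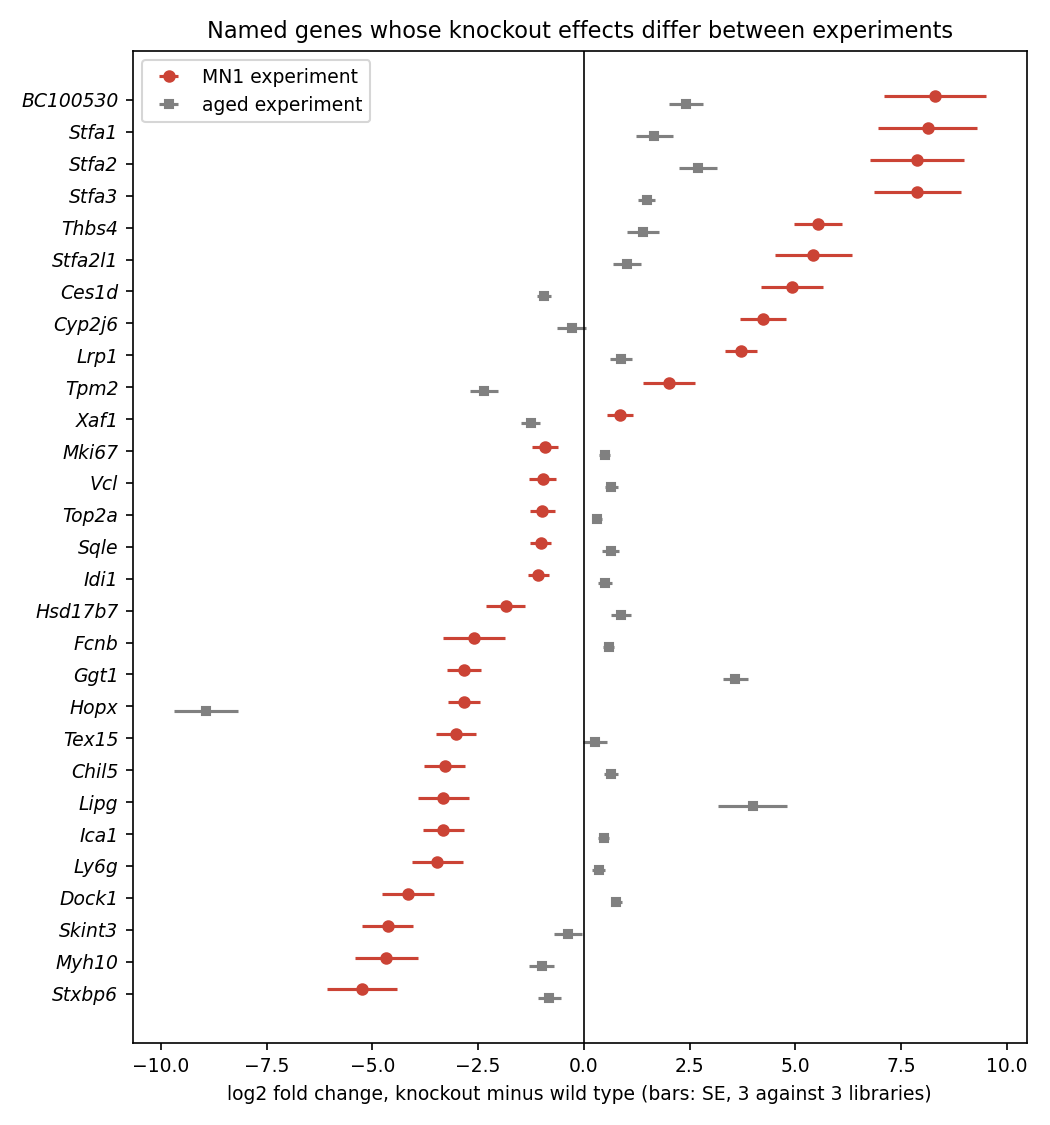
Log2 fold change of knockout against wild type, with SE bars (3 against 3 libraries), in the MN1 experiment (red circles) and in the aged experiment (grey squares), for the 29 named genes whose effects differed at an edgeR adjusted p under 0.05. Among others, Ggt1, Lipg and Dock1 lie on opposite sides of 0, with the MN1 value below it. Ces1d, Tpm2 and Xaf1 also lie on opposite sides, with the MN1 value above 0. The stefin genes lie on the same side with larger values in the MN1 experiment.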

How the data were processed

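Poly(A)-selected, stranded RNA libraries of marrow cells were sequenced, per the labels' protocols. The deposited expected counts and TPM values per gene symbol were made with RSEM 1.2.28 and Bowtie2 2.3.4.3 on mm10, per the submitters' processing notes; the gene annotation and strand setting are not given in the sources used here. The MN1 table held 24444 symbols, and its libraries held 20798116 to 25299033 counts, of which 6.33 to 6.84% of values were not whole. Expected counts were rounded. Genes passing edgeR's filterByExpr were scaled by TMM (factors 0.892 to 1.122) and tested on the 6 libraries with edgeR 4.0.16 in R 4.3.3 by its robust quasi-likelihood test; p-values were adjusted by the Benjamini-Hochberg method and read at 0.05. The common biological coefficient of variation was 42.2%. Means are taken over TMM-scaled CPM; 0.5 was added to CPM before log2 positions and gaps were computed. The script was tested on simulated data.

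Alternatives were DESeq2 1.42.0, limma-trend (limma 3.58.1), edgeR with DESeq2 size factors, library totals, no filter or a stricter one, all 12 libraries, Mn1 level as covariate, and libraries left out. Named genes are Hopx, Mn1, Cxcl12, Cxcr4, Hoxa9 and Meis1; up to 15 per direction with the widest gap between groups, a mean log2 CPM of at least 1 and no predicted-gene symbol; and, of each of 35 lists, up to 4 non-overlapping members by smallest p, otherwise 2. Some genes picked this way are not reported here; the counts of named genes omit them, which leaves 120, most of which the report describes. The members and lists were chosen with earlier results of these data known. Gene positions are from GENCODE on mm10; promoters are from RefSeq, which had windows for 90 of the 120 named genes. An exact permutation test of 3 against 3 libraries cannot give a p below 0.1 and was not used.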

Additional observations from a re-analysis of the deposited data

Results flagged for a closer look

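For 29 genes named by the rule, the knockout effect differed between the MN1 and the aged experiment by edgeR's test of the difference over 12 libraries (adjusted p from 0.000906 to 0.0499). Differences are MN1 effect minus aged effect, on the log2 scale.

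Where the knockout lay higher in the MN1 libraries, the stefin genes differed by 6.43 (Stfa1), 6.37 (Stfa3), 5.85 (BC100530), 5.16 (Stfa2) and 4.39 (Stfa2l1). Enzyme, matrix and receptor genes differed by 5.84 (Ces1d), 4.51 (Cyp2j6), 4.11 (Thbs4) and 2.82 (Lrp1), the tropomyosin gene Tpm2 by 4.36 and the interferon-induced gene Xaf1 by 2.11. Of these, Ces1d, Tpm2 and Xaf1 were lower in the aged knockout, by -0.94, -2.36 and -1.26 (edgeR adjusted p = 0.00443, 0.00152 and 0.00453). The aged change of Cyp2j6 was -0.29 (edgeR adjusted p = 0.545). Hopx differed by 6.12 with lower levels in both knockouts, since its effect was -8.94 ± 0.76 in the aged and -2.84 ± 0.38 in the MN1 libraries.

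The other genes had a negative difference. Lipg and Ggt1 differed by -7.31 and -6.43, Dock1 by -4.93, Stxbp6 by -4.39, Skint3 by -4.22, Chil5 by -3.93, Ly6g by -3.82, Ica1 by -3.8, Myh10 by -3.66 and Tex15 by -3.28. The granule gene Fcnb differed by -3.19 and the vinculin gene Vcl by -1.63. Sterol genes differed by -2.73 (Hsd17b7), -1.67 (Sqle) and -1.58 (Idi1), and the cycling markers Mki67 and Top2a by -1.41 and -1.28. Each of these contrasts uses MN1_WT replicates 2 and 4, which were low in Mn1, and their part in the differences was not tested. Y-linked level also differed between the MN1 groups, and its part was not tested either.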

How the results depend on the processing

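The count of genes called was 0 with TMM, DESeq2 size factors, library totals, no filter, a stricter filter, Mn1 as a covariate, and without MN1_WT replicates 2 and 4, where the spread comes from the knockout libraries alone. It was 565 with DESeq2 (219 higher and 346 lower), 6 with limma-trend (5 and 1) and 464 with all 12 libraries setting the spread (162 and 302), and 0 to 896 with 1 library left out. Non-overlapping genes numbered 2088 with DESeq2 size factors, 2035 with library totals, 2598 with no filter and 1873 with a stricter one, 5652 without MN1_WT replicates 2 and 4, where fewer libraries have to be separated, and 2298 to 6414 with 1 library left out (the most without MN1_WT replicate 3). The difference from the aged effect was called in 463 genes, in 490 with DESeq2 size factors, and in 53 to 3337 with 1 library left out: 53 without aged_WT replicate 7 and 3337 without MN1_WT replicate 3. Whether a single gene passes there can turn on 1 library. With Mn1 as a covariate the direction turned for Mn1 (-0.03), Cxcr4 (0.33), Hoxa9 (-0.98), Meis1 (-0.9), Ppbp (0.31) and Ccne1 (0.14). Without MN1_WT replicates 2 and 4 it turned for Cxcr4 (0.26), Hoxa9 (-0.58), Meis1 (-0.54), Ppbp (0.15) and Ccne1 (0.06). None of these genes passed in any of these fits, and the cause was not tested. Of the 120 named genes, 78 passed with DESeq2, 63 with all 12 libraries, 75 without MN1_WT replicate 3 and 4 with limma-trend, all in the direction of the 6-library fit. No paired analysis was possible because the MN1 groups share no replicate number (2, 3 and 4 against 5, 7 and 8).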
